A study of Mus musculus with 23 samples.

Results

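The genes described here are 10 receptors for serotonin (5-hydroxytryptamine) taken by symbol from a table of normalized RNA-seq counts: Htr1a, Htr1b, Htr1d, Htr1f, Htr2a, Htr2c, Htr3a, Htr4, Htr5a and Htr7. They are 10 of the 27178 genes in the table, and all 10 passed the filter on low values, which asked for 5 libraries with a normalized count of at least 10 and left 16385 genes for testing. Male wild-type mice of the C57BL/6J strain gave the 23 libraries, all from the orbitofrontal cortex (OFC). Every mouse had been injected in the OFC with an AAV6 vector driven by the promoter of Gfap, an astrocyte gene, so each control carried a virus too. ZBTB7A stress mice (n = 5) received AAV6-GFAP-ZBTB7A, which per the labels overexpresses the zinc-finger factor ZBTB7A together with GFP, and then a subthreshold social defeat stress, a short exposure to an aggressor. ZBTB7A control mice (n = 5) received the same vector and no defeat. GFP stress mice (n = 8) received AAV6-GFAP-GFP and the defeat, and GFP control mice (n = 5) received that vector alone. Mice were 8 weeks old per the labels, the virus was given on day 0, the stress on day 21, behaviour was tested between days 22 and 27, and virally infected OFC tissue was dissected on day 28. The design asks whether the virus changes expression with or without stress, whether stress changes it under either virus, and whether the effects interact. The labels do not say that each library came from a separate mouse, so p-values measure only the spread between these samples, which may be technical.

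Serotonin reaches the cortex from neurons of the brainstem raphe nuclei and acts through families of receptors with different couplings. Htr1a, Htr1b, Htr1d, Htr1f and Htr5a encode receptors that couple to inhibitory Gi/o proteins and lower cyclic AMP. Htr2a and Htr2c encode receptors that couple to Gq and phospholipase C, Htr4 and Htr7 encode receptors that couple to Gs and raise cyclic AMP, and Htr3a encodes a subunit of a ligand-gated cation channel. In the cortex Htr1a and Htr2a are known from pyramidal neurons and Htr3a from interneurons, while Htr1b, Htr2c and Htr4 are also known from projection neurons of the neighbouring striatum and Htr2c from the choroid plexus.

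Promoters from RefSeq (GRCm38.p6, 250 bases before to 50 after the annotated start) were found for 8 of the 10 genes and 9 starts. None was found for Htr3a or Htr4. Those of 5 genes are shown because their transcripts varied together across libraries, Htr1b, Htr1d and Htr2c in one direction and Htr2a and Htr5a in the other. Htr4 varied with the first set too, but had no promoter to show. Capitals mark a GC box, GGGCGG or CCGCCC on the strand shown.
Htr1b (chr9:81633783-81634082, minus strand): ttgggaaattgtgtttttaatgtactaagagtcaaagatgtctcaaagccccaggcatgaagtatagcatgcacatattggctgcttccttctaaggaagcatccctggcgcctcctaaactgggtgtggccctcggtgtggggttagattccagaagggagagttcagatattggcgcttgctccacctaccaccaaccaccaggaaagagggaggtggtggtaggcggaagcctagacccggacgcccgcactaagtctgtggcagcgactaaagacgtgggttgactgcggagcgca
Htr1d (chr4:136423274-136423573, plus strand): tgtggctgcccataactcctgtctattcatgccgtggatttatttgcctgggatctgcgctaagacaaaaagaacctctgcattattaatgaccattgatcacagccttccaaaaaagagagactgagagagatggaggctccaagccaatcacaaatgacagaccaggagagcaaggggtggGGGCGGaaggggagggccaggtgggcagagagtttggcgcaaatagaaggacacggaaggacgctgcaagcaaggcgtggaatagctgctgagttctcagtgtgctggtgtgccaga
Htr2c (chrX:146962263-146962562, plus strand): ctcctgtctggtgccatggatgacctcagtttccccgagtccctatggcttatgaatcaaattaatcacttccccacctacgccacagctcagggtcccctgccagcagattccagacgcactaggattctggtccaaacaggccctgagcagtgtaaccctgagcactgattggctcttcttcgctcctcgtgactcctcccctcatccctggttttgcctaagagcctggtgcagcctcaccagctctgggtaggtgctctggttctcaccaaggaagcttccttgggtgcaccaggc
Htr2a (chr14:74640624-74640923, plus strand): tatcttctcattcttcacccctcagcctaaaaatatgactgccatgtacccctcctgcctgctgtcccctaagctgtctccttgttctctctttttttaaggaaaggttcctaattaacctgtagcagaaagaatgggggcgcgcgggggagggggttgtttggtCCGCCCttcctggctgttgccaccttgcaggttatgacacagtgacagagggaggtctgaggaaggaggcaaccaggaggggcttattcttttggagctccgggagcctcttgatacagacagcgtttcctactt
Htr5a (chr5:27841697-27841996, plus strand): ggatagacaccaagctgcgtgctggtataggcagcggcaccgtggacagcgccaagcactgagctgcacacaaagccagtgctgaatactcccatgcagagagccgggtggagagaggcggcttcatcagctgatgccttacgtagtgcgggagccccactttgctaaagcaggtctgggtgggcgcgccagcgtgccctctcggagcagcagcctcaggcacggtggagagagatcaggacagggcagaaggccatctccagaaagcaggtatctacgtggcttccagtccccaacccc

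A GC box, searched on both strands, was present at 1 start or more in 4 of the 8 genes. Of all 32851 promoters of 300 bases 35.7% held a GC box, a share counted per start and not per gene. Htr1a, Htr1f and Htr2a had 1 each and Htr1d had 1 at the start shown and 4 at its second start, while Htr1b, Htr2c, Htr5a and Htr7 had none in this window. None of the 9 windows held TATAAA, which 13.6% of all promoters held on either strand. The windows of Htr1b, Htr1d (shown) and Htr2c had 53.3%, 52.0% and 56.3% G and C, and those of Htr2a and Htr5a had 52.0% and 61.3%, beside a median of 52.7% over all promoters. CpG pairs numbered 11, 7 and 5 in the first set and 6 and 14 in the second, with a median of 7 over all promoters. Neither measure separated the sets, of which the first lacks Htr4. Htr7 stood apart from both, with 81.0% G and C and 46 CpG pairs.

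Libraries held 12.5 to 51.9 M reads assigned to genes. The mouse gene Zbtb7a was no higher in libraries labelled ZBTB7A, with a mean normalized count of 3744 ± 173 (SD, n = 5) in those labelled ZBTB7A stress and 3934 ± 251 (n = 8) in GFP stress, and 3716 ± 247 (n = 5) in those labelled ZBTB7A control and 3834 ± 629 (n = 5) in GFP control. Whether a transcript of the vector would be counted under this gene is not given in the sources used here, so every direction between viruses below rests on the labels alone. Markers of upper and deep cortical layers, astrocytes and microglia were above 0 in every library. So were all 14 genes of a list for striatal neurons, whose level spread widely (the level of a list is the mean over its tested genes of the log2 value centred over the 23 libraries). It ran from 0.20 to 1.51 in ZBTB7A stress and from -1.17 to 1.96 in ZBTB7A control, and from -2.42 to 0.72 in GFP stress and from -0.41 to 0.93 in GFP control. The 5 libraries farthest from its median were GFP stress 5, 12, 20 and 21, all at the low end, and ZBTB7A control 6 at the high end (libraries are named by the number in their title). In tissue RNA, fewer cells of a type and less RNA per cell cannot be told apart.

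Compared per kilobase of annotated exon, Htr1a, Htr2c, Htr5a and Htr2a were the most abundant of the 10 and Htr4 the least. Over the 23 libraries the mean normalized count per kb was 148 ± 25.04 (SD) for Htr1a, 125 ± 38.5 for Htr2c, 111 ± 21.5 for Htr5a and 108 ± 28.2 for Htr2a. Htr3a followed at 70.2 ± 13.5 per kb, then Htr7 at 40.5 ± 15.6, Htr1f at 38.4 ± 8.89, Htr1b at 29.8 ± 15.4, Htr1d at 25.2 ± 14.1 and Htr4 at 11.3 ± 6.19. The ranges of each gene and the next in this order overlapped at every step. Htr1a exceeded Htr2c in 15 of the 23 libraries, Htr2a exceeded Htr3a in 22, Htr3a exceeded Htr7 in 21 and Htr1d exceeded Htr4 in all 23, while Htr7 exceeded Htr1f in 10. Htr1a was the highest of the 10 in 15 libraries, Htr2c in 7 and Htr5a in 1. The Gi/o-coupled receptors thus reached from the first place (Htr1a) to the last but one (Htr1d). Spread within a gene varied as well: the highest library had 15.2 times the lowest for Htr1d, 9.59 times for Htr4 and 6.43 times for Htr1b, but 1.92 times for Htr1a and 2.14 times for Htr3a.

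**Figure D1:**
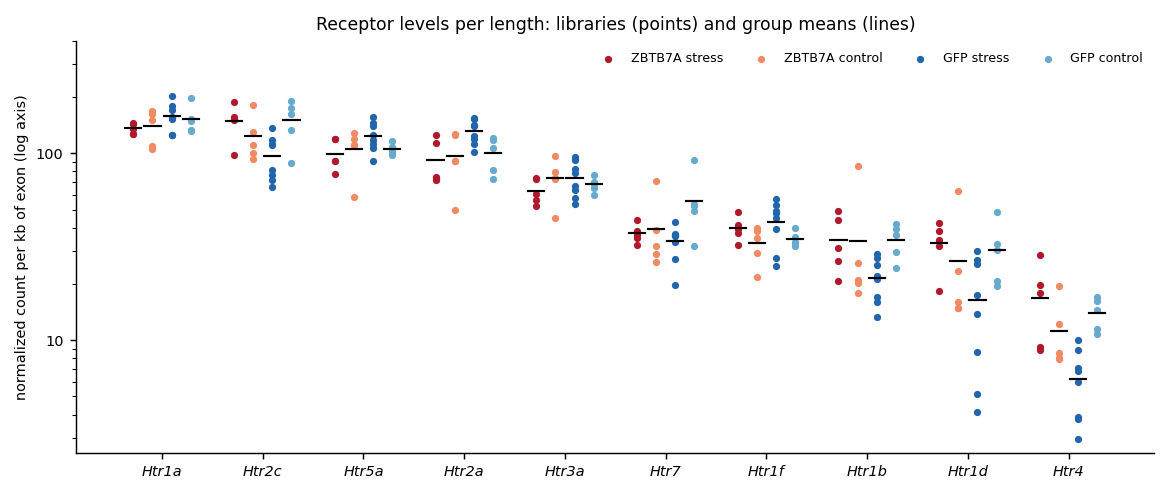
Normalized count per kb of exon (log axis) for the 10 receptor genes in order of their mean, with 1 point per library coloured by group and a black line at each group mean. Htr1a has the highest mean (148 per kb) and Htr4 the lowest (11.3 per kb), and the points of neighbouring genes overlap.

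No receptor gene passed a Benjamini-Hochberg adjusted p of 0.05 over all tested genes in limma in any of the 7 contrasts, and neither did any other gene (0.0% of 16385 tested in each). edgeR on recovered whole reads called none of the 10 either, and DESeq2 called Htr4 alone, in ZBTB7A stress over GFP stress (log2 fold change 1.48, adjusted p = 0.0132), where it called 46 genes (0.281%). Over the 37 alternatives to that contrast the adjusted p of Htr4 ran from 0.00809 to 0.999. At an unadjusted limma p under 0.05 the counts were as follows. In ZBTB7A stress over GFP stress 5 of 10 were past it, 4 higher and 1 lower, beside 16.1% of all tested genes. In GFP stress over GFP control 5 of 10 were past it, all lower, beside 11.2% of all. The other 5 had log2 fold changes above 0 there, of 0.05 to 0.40. Between ZBTB7A control and GFP control the count was 0 of 10, beside 1.73%, and between ZBTB7A stress and ZBTB7A control 0 of 10, beside 1.66%. The first 2 of these contrasts share the 8 GFP stress libraries, so a low or high value there enters both with opposite sign. The median log2 fold change of the 10 genes was 0.05 in ZBTB7A stress over GFP stress, against 0.01 over all tested genes, and -0.29 in GFP stress over GFP control, against -0.01. Without stress it was -0.21 for ZBTB7A control over GFP control, against -0.01, and under the ZBTB7A vector it was 0.12 for stress over control, against 0.01.

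**Figure D2:**
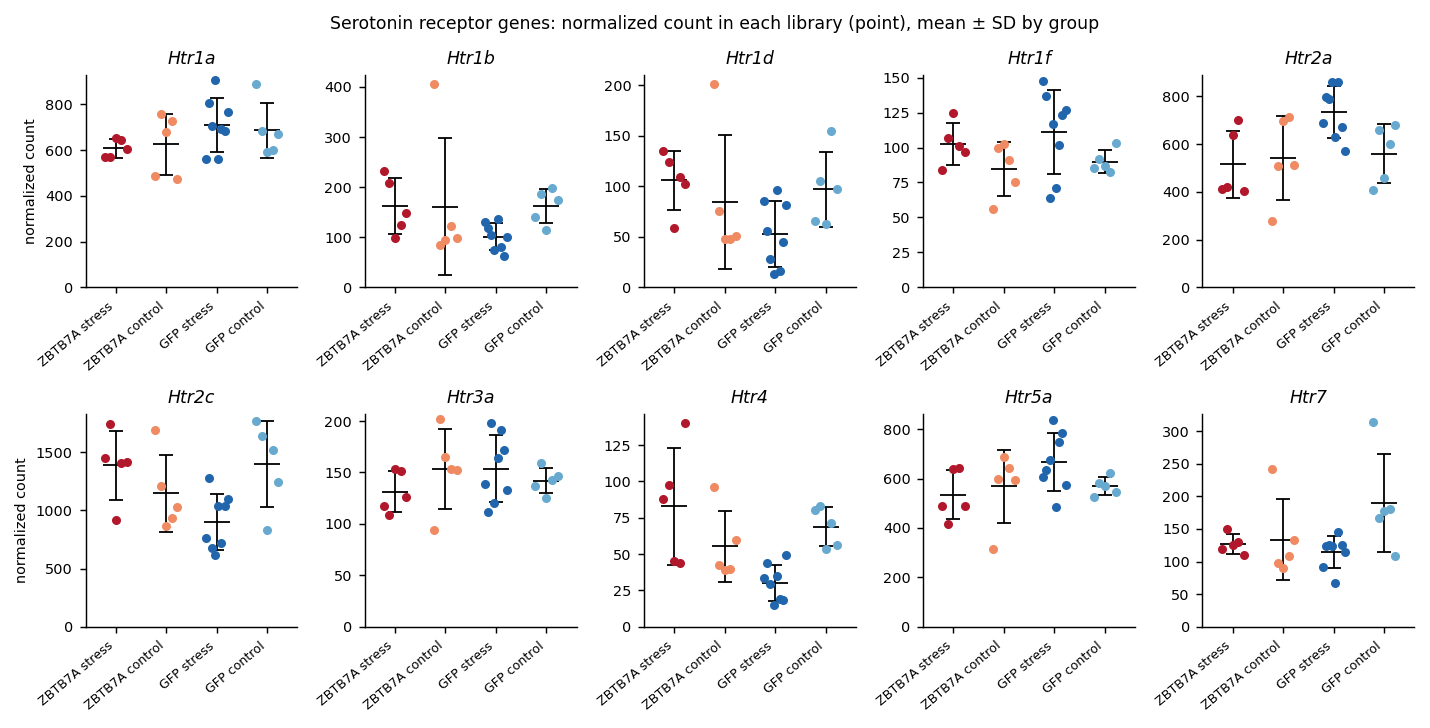
Normalized count of each receptor gene in every library (points) by group, with the mean ± SD of the group in black and axes that start at 0. Htr4 in GFP stress sits between 14.6 and 49.4, below all 5 GFP control libraries, and 1 ZBTB7A control library stands high for Htr1b, Htr1d and Htr7 and low for Htr5a.

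Htr4 and Htr7 encode the Gs-coupled receptors measured here. Htr4 (Entrez 15562, chr18:62324204-62496577, GRCm38, GENCODE M21) had normalized counts of 140.2, 97.2, 87.7, 45.0 and 43.6 in ZBTB7A stress, against 14.6 to 49.4 with a median of 31.5 in GFP stress. It had 96.2, 60.0, 42.1, 39.5 and 38.7 in ZBTB7A control, against 83.1, 80.0, 71.1, 56.4 and 53.3 in GFP control. GFP stress was thus the low group, every one of its libraries lay under every GFP control library, and its range overlapped the lowest 2 ZBTB7A stress libraries and the lowest 3 ZBTB7A control libraries. The values rest on 13 to 34 reads per library in GFP stress and up to 269 elsewhere. The log2 fold change was 1.38 ± 0.31 (SE) for ZBTB7A stress over GFP stress (limma unadjusted p = 1.8e-04, adjusted p = 0.183), with all 5 ZBTB7A stress libraries above the GFP stress median. It was -1.24 ± 0.31 for GFP stress over GFP control (unadjusted p = 5.7e-04, adjusted p = 0.320). Exact two-sided permutation of the libraries gave p = 0.00777 for the first difference and p = 0.00155 for the second, the smallest that 8 against 5 libraries can give. Htr4 was the only receptor gene whose groups did not overlap in GFP stress over GFP control, beside 0.372% of all tested genes. Within the runs of title numbers the difference was 1.37, 0.96 and 1.55 for ZBTB7A stress over GFP stress and -1.19, -1.41 and -1.09 for GFP stress over GFP control. ZBTB7A stress 17 was the only ZBTB7A stress library of the second run, and GFP control 19 the only GFP control library of the third.

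Htr7 (chr19:35958734-36057507) had normalized counts of 150.0, 131, 125, 119 and 110.5 in ZBTB7A stress, 241, 133, 108, 97.8 and 89.3 in ZBTB7A control, 67.3 to 146 with a median of 124 in GFP stress, and 314, 181, 177, 166 and 109 in GFP control. GFP control held the highest library and ZBTB7A control the second highest, and all groups overlapped. The log2 fold change was -0.67 ± 0.23 (SE) for GFP stress over GFP control (limma unadjusted p = 0.0078, adjusted p = 0.345, exact permutation p = 0.0155). This difference was not shared by all runs of title numbers, at -1.02 and -0.96 in the first 2 and 0.23 in the third. For GFP control the value of the third run rests on library 19 alone. ZBTB7A control over GFP control gave -0.51 ± 0.25 (limma unadjusted p = 0.0543, adjusted p = 1.00, exact permutation p = 0.175), and its within-run differences were 0.08, -0.93 and 0.14. For ZBTB7A control the value of the first run rests on library 6 alone, the one at 241.

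Among the Gi/o-coupled receptors, Htr1b and Htr1d sit on nerve endings as autoreceptors and heteroreceptors. Both were lower on average in GFP stress than in ZBTB7A stress and GFP control, while Htr1a, Htr1f and Htr5a differed less. GFP stress was not the only low group. The medians of ZBTB7A control and GFP stress were 98.6 and 102 for Htr1b, and 51.3 and 50.01 for Htr1d. Only ZBTB7A control 6 stood high in its group, at 406 for Htr1b and 201 for Htr1d. Htr1d (chr4:136423524-136444398) had normalized counts of 135, 124, 109, 103 and 58.8 in ZBTB7A stress, against 13.3 to 95.9 with a median of 50.01 in GFP stress. ZBTB7A control had 201, 75.2, 51.3, 47.8 and 47.6, against 155, 105, 97.4, 66.1 and 62.6 in GFP control. All 5 ZBTB7A stress libraries were above the GFP stress median, with overlap of the groups. The log2 fold change was 1.24 ± 0.44 (SE) for ZBTB7A stress over GFP stress (limma unadjusted p = 0.0105, adjusted p = 0.221, exact permutation p = 0.0218). It was -1.09 ± 0.44 for GFP stress over GFP control (unadjusted p = 0.0221, adjusted p = 0.403, exact permutation p = 0.0528). Within the runs of title numbers the first was 1.32, 0.69 and 1.41 and the second -0.70, -1.42 and -1.28.

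Htr1b (chr9:81628291-81633828) had normalized counts of 232, 208, 147, 125 and 98.2 in ZBTB7A stress, against 63.0 to 137 with a median of 102 in GFP stress. ZBTB7A control had 406, 122, 98.6, 95.3 and 84.3, against 198, 186, 174, 140.4 and 115 in GFP control. The library at 406 was ZBTB7A control 6, and 3 of the other 4 in its group lay below every GFP control library. The log2 fold change was 0.65 ± 0.30 (SE) for ZBTB7A stress over GFP stress (limma unadjusted p = 0.0417, adjusted p = 0.298, exact permutation p = 0.0326) and -0.70 ± 0.30 for GFP stress over GFP control (unadjusted p = 0.0302, adjusted p = 0.413, exact permutation p = 0.00932). The first was 0.90, -0.05 and 0.76 within the runs of title numbers, and the second was -0.46, -0.56 and -1.11. For ZBTB7A stress the value close to 0 in the middle run rests on library 17 alone. An antisense gene, D430036J16Rik, shares 852 bases (18.04%) of the Htr1b exons on the opposite strand. Its own mean normalized count was 87.8 ± 24.4 in ZBTB7A stress and 58.8 ± 16.4 in GFP stress, and 78.7 ± 44.4 in ZBTB7A control and 89.3 ± 21.98 in GFP control. Whether reads were counted by strand is not given in the sources used here, so reads of the pair cannot be told apart.

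Htr1a (chr13:105443639-105448122), the somatodendritic autoreceptor of raphe neurons and an inhibitory receptor of cortical pyramidal neurons, ranged from 568 to 655 in ZBTB7A stress and from 561 to 908 in GFP stress, and from 472 to 757 in ZBTB7A control and from 593 to 889 in GFP control. Its groups overlapped throughout. Htr5a (chr5:27842149-27855088), a forebrain receptor, ranged from 417 to 645 in ZBTB7A stress and from 487 to 836 in GFP stress, and from 315 to 688 in ZBTB7A control and from 525 to 625 in GFP control. None of the 5 ZBTB7A stress libraries was above the GFP stress median of 656. Htr1f (chr16:64924729-65105854), the target of a class of migraine drugs, ranged from 83.7 to 125 in ZBTB7A stress and from 64.2 to 148 in GFP stress, and from 56.0 to 103 in ZBTB7A control and from 82.7 to 103 in GFP control. Its log2 fold change was 0.29 ± 0.20 for ZBTB7A stress over ZBTB7A control (limma adjusted p = 1.00, exact permutation p = 0.159).

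The Gq-coupled receptors differed in opposite directions between ZBTB7A stress and GFP stress, Htr2c higher and Htr2a lower. Htr2c (chrX:146962513-147197277), whose transcript is known for RNA editing, had normalized counts of 1745, 1451, 1415, 1408 and 914 in ZBTB7A stress, against 618 to 1276 with a median of 897 in GFP stress. ZBTB7A control had 1694, 1211, 1027, 937 and 867, against 1771, 1637, 1516, 1243 and 829 in GFP control. In ZBTB7A stress 4 libraries lay above every GFP stress library and the fifth above the GFP stress median. The log2 fold change was 0.63 ± 0.21 (SE) for ZBTB7A stress over GFP stress (limma unadjusted p = 0.0060, adjusted p = 0.199, exact permutation p = 0.0202) and -0.63 ± 0.21 for GFP stress over GFP control (unadjusted p = 0.0064, adjusted p = 0.330, exact permutation p = 0.0249). Within the runs of title numbers the first was 0.87, 0.19 and 0.59 and the second -0.97, -0.49 and -0.41. ZBTB7A control over GFP control gave -0.28 ± 0.23 (limma adjusted p = 1.00, exact permutation p = 0.317).

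Htr2a (chr14:74640840-74709494), the receptor on cortical pyramidal neurons through which classical psychedelics act, had normalized counts of 699, 638, 420.2, 412 and 403 in ZBTB7A stress, against 572 to 862 with a median of 739 in GFP stress. ZBTB7A control had 712, 698, 510.3, 510.2 and 278, against 679, 659, 600.0, 458 and 406 in GFP control. In ZBTB7A stress 3 libraries lay below every GFP stress library and none was above the GFP stress median. The log2 fold change was -0.54 ± 0.20 (SE) for ZBTB7A stress over GFP stress (limma unadjusted p = 0.0119, adjusted p = 0.230, exact permutation p = 0.0186), and -0.86, -0.21 and -0.38 within the runs of title numbers. In GFP stress 7 of 8 libraries were above the GFP control median. Htr3a (chr9:48899213-48911099), the channel subunit, ranged from 109 to 153 in ZBTB7A stress and from 111 to 198 in GFP stress, and from 94.4 to 202 in ZBTB7A control and from 125 to 159 in GFP control. The 5 genes not past an unadjusted p of 0.05 had log2 fold changes of -0.32 to 0.17 for ZBTB7A stress over GFP stress (Htr1a, Htr1f, Htr3a, Htr5a and Htr7) and of 0.05 to 0.40 for GFP stress over GFP control (Htr1a, Htr1f, Htr2a, Htr3a and Htr5a).

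The interaction asks whether the difference between viruses depends on stress, and 3 of the 10 receptor genes were at an unadjusted limma p under 0.05, all positive, beside 7.42% of all tested genes. Htr4 had an interaction of 1.76 ± 0.46 (SE) on the log2 scale (unadjusted p = 9.1e-04, adjusted p = 0.668), Htr2c of 0.91 ± 0.31 (unadjusted p = 0.0076, adjusted p = 0.668) and Htr1d of 1.61 ± 0.66 (unadjusted p = 0.0236, adjusted p = 0.668). The other 7 lay between -0.44 and 0.92. This count was 4 without ZBTB7A stress 17 or 25, GFP stress 3, 4, 13 or 20, or GFP control 10 or 19. The share of all tested genes was then 5.88% to 10.6%. The count rose most without ZBTB7A control 6. Then 8 of the 10 were past the unadjusted threshold, beside 20.8% of all tested genes, and 79 genes passed the adjusted one. Htr4 was among them with 1.98 (adjusted p = 0.0493, within 0.0156 to 1.00 over its 36 alternatives). Averaged over stress, 2 of 10 were at an unadjusted p under 0.05, beside 6.07% of all, with 0.50 ± 0.23 for Htr4 and -0.32 ± 0.15 for Htr2a in ZBTB7A over GFP (adjusted p = 0.767 for both). That count went to 0 when any one of ZBTB7A stress 7, 9 or 26, ZBTB7A control 6 or 24, GFP stress 12 or 20, or GFP control 19 was left out, and to 1 without GFP stress 4, 5 or 21 or GFP control 2, 10 or 11, while the share of all genes was 4.33% to 9.53% over the libraries left out. Averaged over virus, 0 of 10 were past it, beside 3.32% of all, with 0.27 ± 0.14 for Htr1f and -0.32 ± 0.17 for Htr7 in stress over control (adjusted p = 0.999 for both). It went to 2 without ZBTB7A control 14 or 15 or GFP control 19, and to 1 without ZBTB7A stress 7 or 26 or GFP stress 5 or 13, while the share of all genes was 2.58% to 5.86%.

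In the contrasts between single groups the count also moved with the library left out. It stayed at 4 to 6 of 10 for ZBTB7A stress over GFP stress whichever library was left out, beside 8.9% to 22.5% of all tested genes. For GFP stress over GFP control it was 3 without GFP control 11, where 18.5% of all genes were past it, and 4 to 6 otherwise. Between ZBTB7A control and GFP control it was 2 without ZBTB7A control 6, beside 6.34% of all, and 1 without GFP stress 13 (1.94%) or GFP control 19 (1.84%). Between ZBTB7A stress and ZBTB7A control it was 3 without ZBTB7A control 6, beside 9.7%. Array weights, which give libraries that stand apart less weight, let 6 of the 10 pass the adjusted threshold in ZBTB7A stress over GFP stress (Htr1b, Htr1d, Htr2a, Htr2c, Htr4 and Htr5a), beside 14% of all tested genes. They let 3 pass in GFP stress over GFP control (Htr1b, Htr2c and Htr4), beside 4.08%, and 4 in the interaction (Htr1b, Htr1d, Htr2c and Htr4), beside 12.6%.

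Levels of the marker lists for the striatum and for the septum and basal forebrain moved with these differences. Across the 23 libraries, as a description of points that share library and depth, the log2 value of Htr1d followed the striatal level with Pearson r = 0.93 (Spearman 0.94), Htr4 with 0.86 (0.82), Htr1b with 0.83 (0.89) and Htr2c with 0.78 (0.77). Htr5a ran against it with -0.84 (-0.81) and Htr2a with -0.67 (-0.64). Without the 2 libraries farthest from the median level, these were 0.90 for Htr1d, 0.78 for Htr4, 0.82 for Htr1b, 0.69 for Htr2c, -0.80 for Htr5a and -0.57 for Htr2a. On values centred within groups, where group differences play no part, they were 0.90, 0.78, 0.78, 0.66, -0.82 and -0.53 in the same order. A list for septum and basal forebrain gave similar values, 0.87 for Htr4, 0.86 for Htr1b, 0.84 for Htr2c, 0.81 for Htr1d, -0.85 for Htr5a and -0.80 for Htr2a. The oligodendrocyte list gave 0.70 for Htr4 and 0.69 for Htr1d, and -0.79 for Htr2a and -0.74 for Htr5a. Signs were the opposite with an olfactory bulb list, at -0.48 for Htr4, -0.46 for Htr1b, -0.42 for Htr1d, -0.16 for Htr2c, 0.46 for Htr5a and 0.34 for Htr2a. They were so with the upper cortical layer list too, at -0.53, -0.42, -0.55, -0.44, 0.60 and 0.56 in the same order. Htr7 followed the choroid plexus list (0.69, and 0.45 without the 2 farthest libraries) and the septal list (0.57, and 0.28 without its 2 farthest) more than the striatal one (0.14). The choroid plexus list was not particular to Htr7. It gave 0.38 for Htr1b, 0.31 for Htr1d, 0.37 for Htr2c and -0.15 for Htr1a. Without the 2 farthest libraries these were 0.64, 0.55, 0.51 and -0.62. Htr3a followed the upper cortical layer list (0.74) and a list for interneurons from the caudal ganglionic eminence (0.57). With the level of the astrocyte list, the cells in which the vector promoter is active, r lay between -0.43 for Htr1f and 0.20 for Htr1b.

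**Figure D3:**
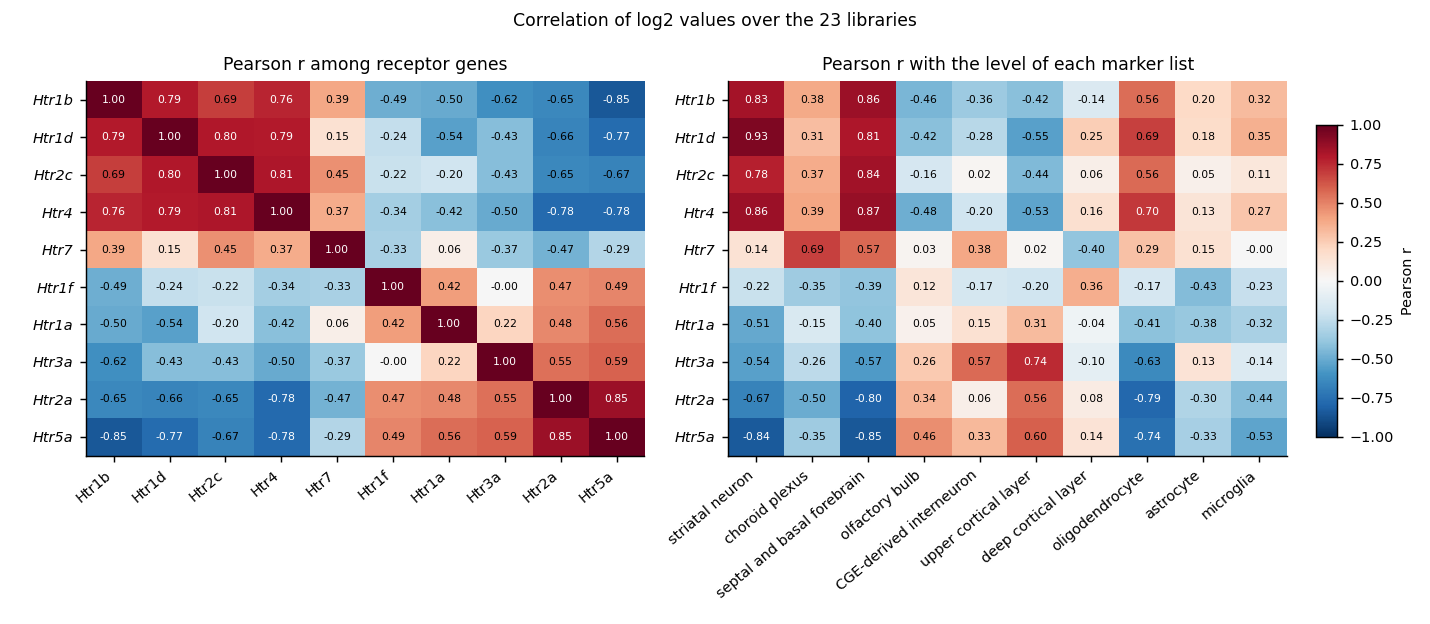
Pearson r of log2 values over the 23 libraries, among the 10 receptor genes (left) and between each gene and the level of each of 10 marker lists (right), from -1 in blue to 1 in red. Htr1b, Htr1d, Htr2c and Htr4 form a block with r of 0.69 to 0.81 that is red with the striatal and septal lists, and Htr2a and Htr5a (r = 0.85) are blue with both.

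The striatal list was detected in full, and its summed normalized count was 46363 to 114590.0 in ZBTB7A stress and 21986 to 171569.7 in ZBTB7A control, and 13430 to 68281 in GFP stress and 33907 to 84452 in GFP control. Of the choroid plexus list 9 of 12 genes were tested, with sums of 371 to 470.1 in ZBTB7A stress and 207 to 1075 in ZBTB7A control, and 198 to 1000.04 in GFP stress and 598 to 8885 in GFP control. Otx2 and Kcne2 were listed at 0 in 2 libraries each and Slc4a5 and Steap1 in 1 each, while Ttr, the transthyretin gene of that tissue, ranged from 3.09 to 7567. The septal list had all 9 genes tested, with Lhx8 and Gbx1 at 0 in 1 library each, and sums of 1726 to 4195 in ZBTB7A stress and 1203 to 7314 in ZBTB7A control, and 1149.8 to 1904 in GFP stress and 2066 to 5931 in GFP control. The part of these tissues in the group differences was not tested beyond the fits with the striatal level, the choroid plexus level or both as covariates. The septal level was not fitted, so its part was not tested for any gene. With the striatal level in the model the log2 fold change of Htr4 was 0.61 ± 0.25 (SE) for ZBTB7A stress over GFP stress (limma unadjusted p = 0.0242, adjusted p = 0.998) and -0.66 ± 0.23 for GFP stress over GFP control (unadjusted p = 0.0091, adjusted p = 0.895, within 0.0375 to 1.00 over its 37 alternatives). Htr1d was then -0.06 ± 0.24 and Htr1b -0.11 ± 0.24 for ZBTB7A stress over GFP stress, with the sign turned, and Htr2c was 0.18 ± 0.19. Of the 10, Htr4 was then past an unadjusted p of 0.05 in the first contrast, beside 3.39% of all tested genes, and Htr4 and Htr7 in the second, beside 5.41%. With the choroid plexus level in the model Htr7 was -0.08 ± 0.30 for GFP stress over GFP control, and Htr4 was -1.11 ± 0.47. That level did not overlap between these groups, at -1.57 to 0.12 in GFP stress and 0.45 to 2.89 in GFP control. The septal level did not overlap between these groups either, at -1.61 to -0.03 in GFP stress and 0.26 to 1.59 in GFP control. In this contrast neither the choroid plexus level nor the septal level can therefore be told apart from the stress. Without the 5 libraries far in striatal level Htr4 was 0.90 for ZBTB7A stress over GFP stress and -0.75 for GFP stress over GFP control, and Htr1d was 0.38 and -0.23.

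**Figure D4:**
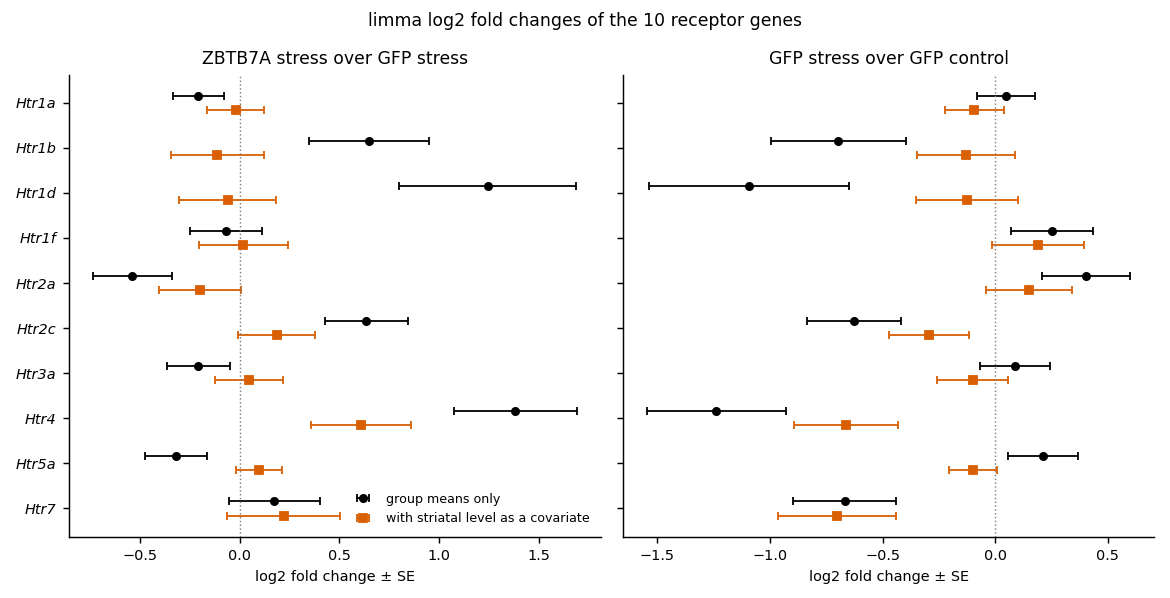
limma log2 fold changes ± SE of the 10 receptor genes for ZBTB7A stress over GFP stress (left) and GFP stress over GFP control (right), from group means only (black circles) and with the striatal level as a covariate (orange squares). Htr4 has 0.61 and -0.66 with the covariate, while Htr1b and Htr1d lie within 0.13 of 0.

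**Figure D5:**
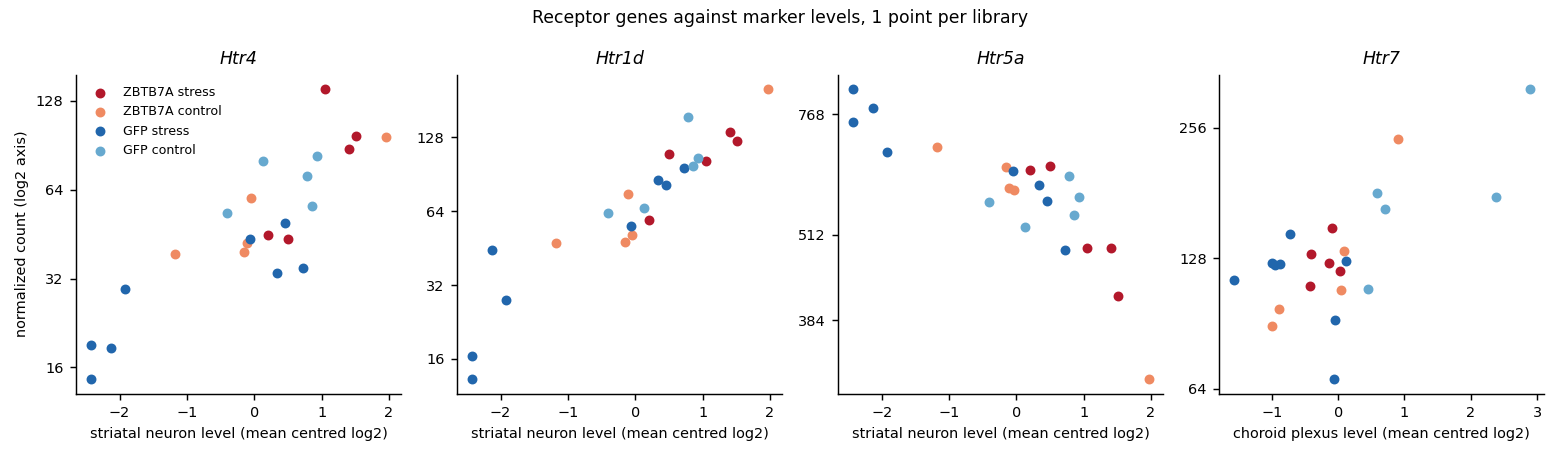
Normalized count (log2 axis) of Htr4, Htr1d and Htr5a against the striatal neuron level and of Htr7 against the choroid plexus level, with 1 point per library coloured by group. Htr4 and Htr1d climb and Htr5a declines with the striatal level (r = 0.86, 0.93 and -0.84), and the 4 GFP stress libraries at the far left have the lowest Htr4 values.

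Among themselves the receptor genes split by these patterns and not by coupling. Htr1b, Htr1d, Htr2c and Htr4, which span Gi/o, Gq and Gs coupling, had pairwise Pearson r of 0.69 to 0.81 over the 23 libraries, and 0.56 to 0.71 on values centred within groups. Htr2a and Htr5a had 0.85 (0.82 within groups). Between these sets r was negative in every pair, from -0.65 for Htr2a with Htr2c to -0.85 for Htr1b with Htr5a. The pair of Gq receptors, Htr2a and Htr2c, thus ran opposite with -0.65, and the pair of Gs receptors, Htr4 and Htr7, had 0.37. Htr1a stood with Htr5a (0.56) and Htr2a (0.48), and against Htr1d (-0.54). Htr1f and Htr3a had -0.004.

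For each receptor gene the tested genes of most similar pattern over the 23 libraries were taken by Pearson r, and each r is given as a description. Htr1b was nearest to Ptpn5 (0.95), the gene of a striatum-enriched phosphatase that is also in the striatal list, then Cbr3 and Calcoco1 (0.93 each). Htr1d was nearest to Slc35d3 and Syndig1l (0.96 each) and Slc10a4 (0.95). Htr4 was nearest to Ripor2 (0.93), Isl1 (0.92), a LIM-homeobox transcription factor, and Akap9 (0.92). Htr2c was nearest to Klhl13 (0.94), Nts (0.90), the gene of neurotensin, and Zcchc12 (0.89). Htr5a was nearest to Aars (0.98), which encodes alanyl-tRNA synthetase, Pak1 (0.97) and Mapk10 (0.96), and Htr2a to Actr1b, Igfbp6 and Nlk (0.93, 0.93 and 0.92). Htr7 was nearest to Gpc3 (0.88), Frem3 (0.87) and Slc18a2 (0.87), the vesicular monoamine transporter. Htr1a was nearest to Omg (0.89), Asb8 (0.82) and Tnni3k (0.80), and Htr3a to Bhlhe22 (0.86), Maf and Syt17 (0.83 each). Htr1f had the loosest neighbours, 1700019D03Rik (0.77), Sult2b1 (0.76) and Ift57 (0.76). The r to the nearest gene on values centred within groups was 0.96 for Htr1b, 0.95 for Htr1d, 0.87 for Htr4, 0.91 for Htr2c and 0.97 for Htr5a.

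Of 4 further serotonin receptor genes, Htr2b, Htr5b and Htr6 were tested and Htr3b was not. Htr6, a Gs-coupled receptor, averaged 128 ± 18.6 (SD) in ZBTB7A stress and 106 ± 21.4 in GFP stress, and 111 ± 21.6 in ZBTB7A control and 111 ± 42.0 in GFP control. Htr5b averaged 22.2 and Htr2b 9.01 over all libraries, and Htr3b had at most 2 reads in a library. None of the 3 was at an unadjusted p under 0.05 in any contrast.

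Of 11 genes for serotonin synthesis, transport and breakdown 8 were tested. Transcripts that mark serotonin neurons themselves were near 0, with a mean normalized count of 12.6 for Tph2, the synthesis enzyme, and 2.62 for Slc6a4, the reuptake transporter. Maoa and Maob, which break serotonin down, averaged 854 and 683. In ZBTB7A stress over GFP stress 2 of 8 were at an unadjusted p under 0.05, both higher, beside the 16.1% of all genes. Ddc, the aromatic amino acid decarboxylase, averaged 202 ± 43.0 in ZBTB7A stress and 128 ± 35.5 in GFP stress, and 138 ± 30.0 in ZBTB7A control and 194 ± 54.5 in GFP control. Its log2 fold change was 0.68 ± 0.21 (SE) for ZBTB7A stress over GFP stress (limma adjusted p = 0.183), and Slc22a3, a low-affinity transporter, had 0.65 ± 0.31 (adjusted p = 0.310). In GFP stress over GFP control 3 of 8 were past it, all lower, beside 11.2% of all genes, namely Ddc (-0.60 ± 0.21, adjusted p = 0.345), Slc29a4 (-0.37 ± 0.14, adjusted p = 0.383) and Slc18a2 (-0.51 ± 0.23, adjusted p = 0.426). Ddc was also the 1 of 8 past it in ZBTB7A stress over ZBTB7A control (0.54 ± 0.23, beside 1.66% of all genes) and in the interaction (1.14 ± 0.31, limma adjusted p = 0.668, beside 7.42%).

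All 28 genes of G protein signalling below the receptors were tested. In ZBTB7A stress over GFP stress 9 were at an unadjusted p under 0.05, 4 higher and 5 lower, beside 16.1% of all tested genes, and in GFP stress over GFP control none were, beside 11.2%. The genes named are at most 3 per contrast, those with the smallest p. Gnal, the Gs-like alpha subunit abundant in striatum, averaged 9245 ± 1562 (SD) in ZBTB7A stress and 5770.3 ± 1434 in GFP stress, with a log2 fold change of 0.70 ± 0.19 (SE, limma adjusted p = 0.183). Adcy5, the adenylyl cyclase of the same neurons, averaged 13341 ± 4123 and 6717 ± 3229 in these groups (1.07 ± 0.34, adjusted p = 0.193). Gnas, the Gs alpha subunit used across tissues, averaged 29768 ± 2123 in ZBTB7A stress and 35434 ± 2219.9 in GFP stress (-0.25 ± 0.07, adjusted p = 0.183). In the interaction 4 were past it, 3 higher and 1 lower, beside 7.42% of all, and the 3 with the smallest p were Gnal (0.78 ± 0.28), Adcy5 (1.25 ± 0.51) and Prkar2b (0.46 ± 0.19). Averaged over stress 3 were, beside 6.07%, namely Gnas (-0.17 ± 0.06), Plcb4 (-0.30 ± 0.12) and Gnal (0.31 ± 0.14), and in ZBTB7A stress over ZBTB7A control 1 was, beside 1.66%, namely Prkar2b (0.30 ± 0.14). None passed the adjusted threshold in limma. Of 8 genes for receptor partners and RNA editing, among them Adar and Adarb1, the editing enzymes that act on the Htr2c transcript, none was at an unadjusted p under 0.05 in any contrast.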

How the data were processed

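The deposited file holds 1 table of DESeq2-normalized read counts per gene, a signal in which the authors divided each library's counts by a size factor. Poly(A) RNA had been sequenced from TruSeq libraries, per the labels' protocols. Tools listed in the submitters' processing notes are featureCounts 2.0.1, HISAT2 2.1.0 and DESeq2 2.11.40.6, beside the builds mm10 and mm9 with no role for either. Of 27606 entries, 428 identical repeats were removed, which left 27178 genes, and 16385 passed the filter on low values. Low values were whole multiples of 1 read in each library, so whole reads were recovered (100% of values within 0.02 reads) and used only for depth and for alternatives. edgeR called 0 genes on them in each contrast, and DESeq2 called 46 for ZBTB7A stress over GFP stress, 39 for GFP stress over GFP control, 7 for ZBTB7A over GFP averaged over stress, 3 for the interaction, 1 for each of the other 2 stress contrasts and 0 for ZBTB7A control over GFP control.

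log2(normalized count + 1) was fitted with limma 3.58.1 (R 4.3.3) over the 4 groups and all 23 libraries, with robust empirical Bayes, trend and Benjamini-Hochberg adjustment over all tested genes. Fold changes on this scale understate those of low genes. Exact permutation tests, two-sided, exchanged libraries between a pair of groups. The smallest p they allow is 0.00155 for 5 against 8 libraries and 0.00794 for 5 against 5. The limma fit was tested on simulated counts for the contrasts between single groups. Each gene was drawn independently there, so variation shared between genes was not simulated. In each contrast the receptor genes named are those at an unadjusted p under 0.05, or the 2 with the smallest p where fewer than 2 are, with the rest as a range. Of the other lists at most 3 genes per list and contrast are named, those past that threshold with the smallest p, and the nearest 3 genes by Pearson r are named for each receptor. Receptor genes and lists were chosen with earlier results of these data known. Libraries were also compared within 3 runs of consecutive title numbers (1 to 9, 10 to 17 and 19 to 26), which the labels do not call batches. In each run a group rests on a single library, namely ZBTB7A control 6, ZBTB7A stress 17 and GFP control 19 in turn. Alternatives were another pseudocount, other filters, TMM scaling, no robust option, array weights, number run, striatal and choroid plexus levels as covariates, the compared groups alone, count tests of the recovered reads (DESeq2 1.42.0 and edgeR 4.0.16), and each library or 5 libraries left out. Python 3.11.15 with numpy 2.4.6, pandas 2.3.3, scipy 1.17.1 and matplotlib 3.10.9 was used for the rest.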

Additional observations from a re-analysis of the deposited data

Results flagged for a closer look

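In the ZBTB7A control group, 1 library, ZBTB7A control 6, stood apart from the other 4 for 4 receptor genes by Dixon's test of the gap to the nearest library over the range of the group. Its normalized count was 406 for Htr1b, against 84.3 to 122 in the others (gap over range 0.881, critical value 0.71), and 201 for Htr1d, against 47.6 to 75.2 (0.820). It was 315 for Htr5a, against 596 to 688 (0.753), and 241 for Htr7, against 89.3 to 133 (0.715). Chance flags about 1 in 20 such sets, and 40 were examined. The same library had the highest striatal level of all 23 (1.96), and the part of that in its receptor values was not tested.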

How the results depend on the processing

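No paired analysis was possible because the groups share no number in the labels. No named gene passed the adjusted threshold in limma, so no call could be lost. Of 1392 values of named genes under alternatives, 22 passed it, 10 reversed and the other 1360 kept their direction without passing it. The reversals came with covariates: for ZBTB7A stress over GFP stress Htr1d was -0.062 with the striatal level and -0.064 with both levels, and Htr1b was -0.11 and -0.14. For GFP stress over GFP control Htr1b was 0.058 and Ddc 0.13 with both levels, and Slc18a2 was 0.25 with the choroid plexus level and 0.26 with both. The interaction of Adcy5 was -0.015 with the striatal level and -0.041 with both. The cause was not tested.

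Receptor genes past the adjusted threshold numbered 6 with array weights and 1 with DESeq2 for ZBTB7A stress over GFP stress, 3 with array weights for GFP stress over GFP control, and 4 with array weights for the interaction (0 in each otherwise, except 1 without ZBTB7A control 6 in the interaction, so 0 to 1 over libraries left out). Counts at an unadjusted p under 0.05 are given with the share of all tested genes past it under the same setting in brackets, since that share moved too. For ZBTB7A stress over GFP stress (5, 16.1%) the count was 1 with the striatal level (3.39%), 1 with both levels (3.71%) and 2 without the 5 far libraries (6.19%). For ZBTB7A control over GFP control (0, 1.73%) it was 3 with array weights (12.4%), 1 with the choroid plexus level (3.93%), 2 with both (7.4%), 4 without the far libraries (7.26%), 1 with DESeq2 (1.84%) and 0 to 2 with 1 library left out (1.37% to 6.34%). For ZBTB7A over GFP averaged over stress (2, 6.07%) it was 1 with array weights (9.75%), 0 with the striatal level (3.67%), 4 with the choroid plexus level (14.3%), 1 with both (7.27%), 0 without the far libraries (3.11%), 1 with edgeR (6.19%), 1 with DESeq2 (6.51%) and 0 to 3 with 1 library left out (4.33% to 9.53%). For ZBTB7A stress over ZBTB7A control (0, 1.66%) it was 4 with array weights (13.2%), 5 without the far libraries (11%) and 0 to 3 with 1 library left out (0.934% to 9.7%). For GFP stress over GFP control (5, 11.2%) it was 2 with the striatal level (5.41%), 1 with the choroid plexus level (3.08%), 1 with both (7.89%), 3 without the far libraries (5.55%) and 3 to 6 with 1 library left out (8.27% to 18.5%). For stress over control averaged over virus (0, 3.32%) it was 2 with the number run (4.8%), 2 without the far libraries (6.2%), 2 with edgeR (3.92%), 2 with DESeq2 (4.22%) and 0 to 2 with 1 library left out (2.58% to 5.86%). For the interaction (3, 7.42%) it was 7 with array weights (30.9%), 1 with the striatal level (2.06%), 1 with both (4.21%), 5 without the far libraries (10.6%) and 3 to 8 with 1 library left out (4.39% to 20.8%). Depth limits Htr4 most, at 13 reads in its lowest library.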
